A study of Mus musculus with 19 samples.

Results

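The presynaptic vesicle and release machinery was followed here through 36 genes, chosen by name, out of 35842 rows in the deposited count table. All 36 genes passed the filter on low counts, so all were among the 18529 genes tested. Hippocampal RNA was sequenced from 19 female mice in 4 genotype groups. WT mice (n = 5) carried neither transgene. A2A mice (n = 5) carried TRE-A2A, a Tet-responsive transgene for the murine adenosine A2A receptor. APP/PS1 mice (n = 5) were heterozygous APPswe/PS1dE9 animals, which develop amyloid deposits, and APP/PS1 A2A mice (n = 4) carried both. All animals, controls included, received an adeno-associated virus that expresses the transactivator tTA from the chicken beta-actin promoter, injected on both sides into dorsal CA1 at 3 months, on a C57Bl6/J background, and were killed at 6 months. The receptor was therefore raised in transduced neurons around the injection site, whereas the RNA came from the whole hippocampus of 1 hemisphere. The labels name no batch, litter or day.

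A nerve terminal releases transmitter when a docked vesicle fuses with the plasma membrane. Fusion is driven by SNARE proteins, in which synaptobrevin on the vesicle zips together with syntaxin and SNAP-25 on the terminal membrane, and it is triggered by calcium binding to synaptotagmin. Scaffolds of the active zone hold vesicles near calcium channels, NSF and its SNAP adaptors pull the used SNARE complexes apart, and endocytic proteins retrieve the vesicle membrane. In the hippocampus these proteins serve mainly glutamatergic terminals, with an inhibitory minority that includes fast-spiking parvalbumin interneurons. The mRNA of a terminal protein is made in the cell body, so transcripts in dissected tissue come mostly from neurons whose cell bodies lie within it.

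Sequences before and after the transcription start were at hand from RefSeq (GRCm38.p6) for 28 of the 36 genes, each 300 bases long with 250 bases before the start. These windows had a median GC content of 66.2%, against 52.7% over all 27025 promoters. The GC box GGGCGG was present on either strand in 20 of 28 windows (71.4%) and in 35.9% of all promoters, and the TATA box TATAAA in 1 of 28 (3.57%, Sv2b) against 14.2%. The stretch TTCAGCACC, the left arm of the RE1 element, which is bound by the repressor REST outside neurons, was found in 3 of 28 windows (10.7%) and in 0.37% of all promoters. The windows around it are shown because this arm, rare among promoters, was shared by 3 of these neuronal genes. Each is given on the strand that reads TTCAGCACC, which is in capitals. They belong to Syn1 (synapsin I, chrX:20921124-20921153, minus strand), Ppfia3 (liprin-alpha-3, chr7:45367039-45367068, minus strand) and Unc13a (Munc13-1, chr8:71671724-71671753, plus strand, opposite to the gene's own reading in this window).
Syn1: ggaTTCAGCACCgcggtcagagccttcgcc
Ppfia3: ccaTTCAGCACCgtccgtcagtcttctgtt
Unc13a: cgcTTCAGCACCgggggcgcggacagcgcc

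The cyclic AMP response element TGACGTCA occurred in 2 of 28 windows (7.14%, Napa and Syn1, 1.85% of all promoters) and the NRF1 site in 5 of 28 (17.9%, against 4.82%). The ETS site CCGGAAGT (3.99% of all promoters), the MEF2 site (0.163%) and the serum response element (0.0777%) were in 0 of 28 windows. All motifs were searched on both strands. The MEF2 site contains the TATA box on the opposite strand, so each MEF2 hit is also a TATA box hit. No other listed motif is a stretch of another. Whole windows are shown for Sv2b and Syt2, the genes at the opposite ends of the mouse-to-mouse pattern described below. Sv2b (chr7:75309213-75309512, minus strand) has the TATA box on the opposite strand, in capitals, a GC content of 51.3% and 1 GC box. Syt2 (chr1:134646362-134646661, plus strand) has a GC content of 74.3% and 4 GC boxes, which read CCGCCC on this strand and are in capitals.
Sv2b: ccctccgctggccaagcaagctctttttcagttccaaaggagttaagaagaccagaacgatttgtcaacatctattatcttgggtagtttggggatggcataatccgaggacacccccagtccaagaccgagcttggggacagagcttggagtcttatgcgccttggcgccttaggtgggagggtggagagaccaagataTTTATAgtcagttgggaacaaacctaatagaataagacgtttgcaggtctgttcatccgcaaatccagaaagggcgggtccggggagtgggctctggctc
Syt2: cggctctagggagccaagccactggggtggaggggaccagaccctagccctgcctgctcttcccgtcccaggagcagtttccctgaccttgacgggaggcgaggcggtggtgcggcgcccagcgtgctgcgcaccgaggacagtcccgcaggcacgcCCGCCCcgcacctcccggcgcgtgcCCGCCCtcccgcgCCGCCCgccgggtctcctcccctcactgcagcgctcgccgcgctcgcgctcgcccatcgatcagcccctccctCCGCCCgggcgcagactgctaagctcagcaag

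Libraries held 21305902 to 53717373 counts. App and Prnp, whose sequences are in the APP/PS1 cassette, separated carriers from non-carriers without overlap (App 3282 to 4499 CPM, counts scaled to the TMM-adjusted library total, in carriers and 1381 to 1920 in the others). Adora2a was listed at 0.865 to 9.35 CPM in A2A and 1.27 to 10.3 CPM in APP/PS1 A2A mice, against 1.09 to 1.83 CPM in the other groups. The transgene is a recoded cDNA whose reads may not be counted under Adora2a, so that gene does not check the A2A label. The 10 pan-neuronal markers summed to 6972 to 8821 CPM in every library. Summed markers of neighbouring tissue varied widely within groups, with choroid plexus at 221 to 14672 CPM over all mice.

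In WT mice the genes spanned a wide range of levels, expressed as CPM per kilobase of annotated exon (mean ± SD, n = 5). The t-SNARE Snap25 (328 ± 47.0), the complexin Cplx2, a clamp and helper of SNARE zippering (318 ± 11.6), and the vesicle protein Syp, synaptophysin (287 ± 24.7), stood at the top. Vamp2, the main synaptobrevin of forebrain vesicles, reached 224 ± 8.80, the fast calcium sensor Syt1 211 ± 24.5, and Cplx1 211 ± 15.2. The endocytic GTPase Dnm1 (189 ± 15.8), the vesicular glutamate transporter Slc17a7 (167 ± 22.8) and the vesicle GTPase Rab3a (154 ± 6.62) followed. Active zone scaffolds were lower, with Bsn at 25.3 ± 3.20, Erc2 at 24.1 ± 3.17 and Pclo at 16.2 ± 1.30, on long exonic sequences. Syt2, the fast sensor of hindbrain and of many inhibitory terminals, reached 5.00 ± 2.39, the high-affinity sensor Doc2a 5.00 ± 1.43 and the synapsin Syn3 0.861 ± 0.197. Of the 35 pairs of neighbours in this order, 4 did not overlap between WT mice. These were Syp above Vamp2, Erc2 above Ppfia3, Pclo above Syt2, and Doc2a above Syn3. Exon unions make these levels approximate where long rare isoforms exist. Of the 36 genes, 15 share 9 to 1733 exonic bases with a gene on the opposite strand, and the strand setting of the counting is not given in the sources used here, so reads of such partners may not have been told apart.

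**Figure D1:**
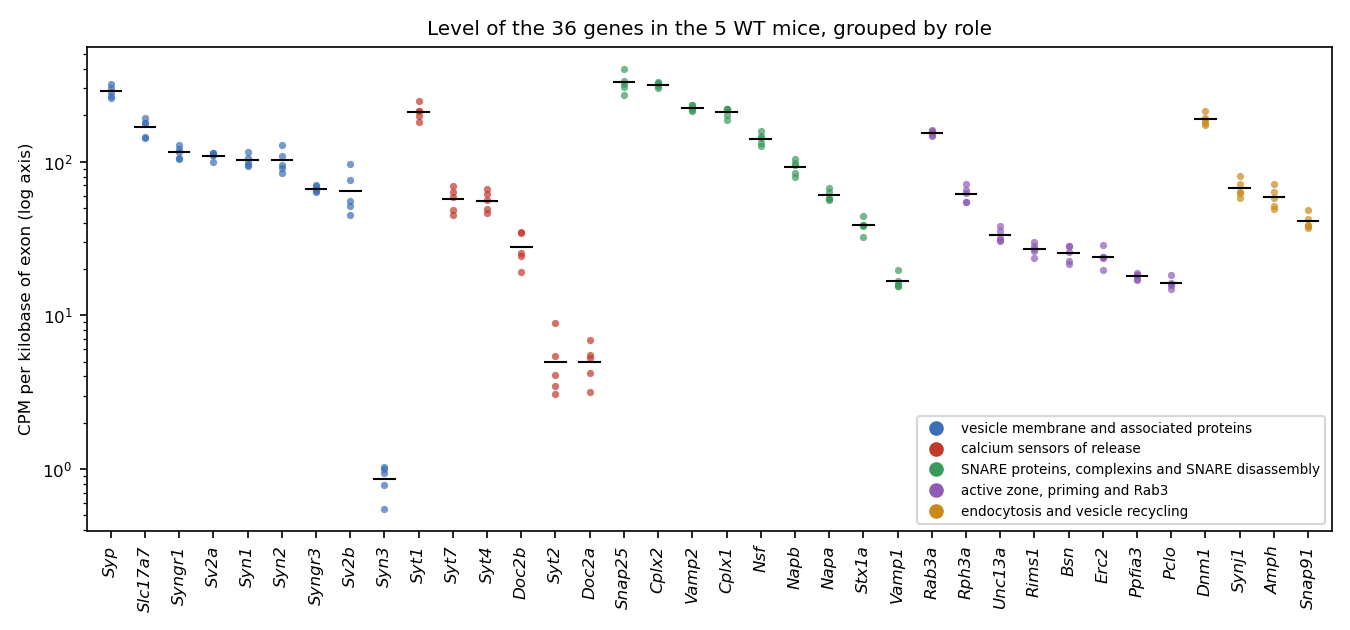
Level of the 36 genes in the 5 WT mice, in CPM per kilobase of exon on a log axis. Points are mice, bars are means, and colours give the role. Snap25 is highest at a mean of 328 and Syn3 lowest at 0.861, and within most roles neighbouring genes overlap.

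Related genes divided the expression unevenly. Per kilobase, Syt1 exceeded Syt2 by a mean ratio of 49.7 ± 22.2 in WT (n = 5), 50.5 ± 27.1 in A2A (n = 5), 58.9 ± 31.9 in APP/PS1 (n = 5) and 73.0 ± 21.1 in APP/PS1 A2A mice (n = 4). The 4 ranges overlapped. Syt1 itself read 1787, 1784, 1662, 2062 and 1506 CPM in WT, 1503, 1618, 2103, 1442 and 1924 CPM in A2A, 1547, 1942, 1419, 1753 and 2185 CPM in APP/PS1 and 1317, 1969, 1976 and 2089 CPM in APP/PS1 A2A mice, again with every group overlapping. Vamp2 exceeded Vamp1 by 13.5 ± 0.987 in WT, Cplx2 exceeded Cplx1 by 1.52 ± 0.159, and Napb exceeded Napa, 2 forms of the SNAP adaptor for NSF, by 1.54 ± 0.265. Napa read 218, 213, 239, 220 and 253 CPM in WT, 217, 243, 259, 238 and 276 CPM in A2A, 261, 220, 229, 211 and 290 CPM in APP/PS1 and 343, 239, 235 and 234 CPM in APP/PS1 A2A mice. The first APP/PS1 A2A mouse was the highest of all 19. The lowest Napb to Napa ratio, 0.887, belonged to replicate 1 of the APP/PS1 A2A group, the single mouse in which Napa was the higher of the pair.

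As a whole, the 36 genes took 1.98% ± 0.132 of all counts in WT, 2.02% ± 0.234 in A2A, 1.99% ± 0.218 in APP/PS1 (n = 5 each) and 2.10% ± 0.242 in APP/PS1 A2A mice (n = 4). The ranges of all groups overlapped.

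The first comparison asked whether amyloid pathology alone moved these transcripts, in APP/PS1 against WT mice. None of the 36 genes was called, where a call needed a Benjamini-Hochberg adjusted p under 0.05 over all tested genes and an absolute log2 fold change above 0.32 in edgeR's quasi-likelihood test (0 of 36, against 0.054% of all genes called). No gene reached an unadjusted p under 0.05 in either direction (1.38% of all genes did so upwards and 0.88% downwards), and DESeq2 and limma-voom called 0 of 36 as well. The fitted values lay between -0.18 (Syt2) and 0.10 (Amph), with a median of 0.01, and the median over all genes was 0.00. For 21 of 36 genes the 95% interval stayed within 0.32 of 0 on the log2 scale, and for 36 of 36 within 1. The smallest unadjusted p belonged to Syngr3, a small vesicle membrane protein (log2 fold change 0.07, SE 0.06, adjusted p 0.9998 in edgeR).

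The main constituents of excitatory terminals showed what this null looked like in single mice. Synaptophysin (Syp) read 1482, 1584, 1350, 1661 and 1396 CPM in WT mice and 1524, 1605, 1399, 1444 and 1814 CPM in APP/PS1 mice. Syp shares 875 exonic bases with the antisense gene Gm14703, which itself was listed at 3.59 to 13.8 CPM over all 19 mice. The groups overlapped almost fully, and the interval of the difference ran from -0.13 to 0.25. Slc17a7 read 779, 964, 768, 1044 and 960 CPM in WT and 1094, 819, 729, 827 and 1332 CPM in APP/PS1 mice. It varied more between mice than Syp, and its interval ran from -0.25 to 0.43. Snap25, the terminal SNARE, read 2187, 2283, 2091, 2726 and 1859 CPM in WT and 2004, 2351, 1706, 2301 and 2871 CPM in APP/PS1 mice, with an interval from -0.31 to 0.34. Syn1 read 308, 348, 316, 379 and 330 CPM in WT and 382, 337, 295, 314 and 442 CPM in APP/PS1 mice, with an interval from -0.15 to 0.30. In none of these genes did the groups separate.

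The second comparison asked about receptor upregulation alone, in A2A against WT mice. Again 0 of 36 genes were called (0% of all genes were called, 0 of 18529 by edgeR, with DESeq2 calling 1 gene and 637 genes at an unadjusted p under 0.05 in edgeR). Fitted values lay between -0.20 (Syn3) and 0.18 (Stx1a, the syntaxin of the terminal membrane), with a median of 0.04 against 0.00 over all genes. A single gene, 1 of 36, was higher with an unadjusted p below 0.05, as were 1.98% of all genes, and 0 of 36 were lower (1.46% of all genes). It was Rab3a, the GTPase that tethers vesicles to active zone effectors.

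Rab3a read 345, 360, 331, 354 and 325 CPM in WT and 352, 383, 408, 385 and 386 CPM in A2A mice. The 4 upper A2A values lay above every WT value, and the lowest A2A value lay within the WT range. Genes whose groups did not overlap made up 0.68% of all genes higher in A2A and 0.437% lower, and 0 of 36 here in either direction. The log2 fold change was 0.16 (SE 0.07, 95% interval 0.01 to 0.30, unadjusted p 0.0357, adjusted p 0.964 in edgeR), so Rab3a was not called. The other genes of smallest p were Syngr3 (log2 fold change 0.11, SE 0.06), Vamp2 (0.11, SE 0.07) and Stx1a (0.18, SE 0.11), none with an unadjusted p under 0.05. Stx1a read 103, 103, 118, 102 and 86.6 CPM in WT and 119, 116, 133, 105 and 106 CPM in A2A mice. Vamp2 read 849, 819, 885, 889 and 821 CPM in WT and 912, 898, 1014, 913 and 858 CPM in A2A mice. In both genes the A2A mice lay mostly in the upper part of the WT range or above it, with overlap. The intervals of 13 of 36 genes lay within 0.32 of 0, and all 36 lay within 1.

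The main terminal genes overlapped in this comparison too. Syp read 1436, 1527, 1769, 1493 and 1705 CPM in A2A mice, with an interval of the difference from -0.10 to 0.27. Snap25 read 1977, 2164, 2626, 2012 and 2473 CPM, with an interval from -0.31 to 0.34. Slc17a7 read 801, 980, 1152, 730 and 1197 CPM, with an interval from -0.24 to 0.45. In each of the 3 the A2A values spread on both sides of the WT median. Syn1 read 379, 367, 395, 294 and 405 CPM and its interval ran from -0.10 to 0.36. Syn3, a synapsin of low level in adult brain, read 12.2, 9.71, 12.6, 6.74 and 11.6 CPM in WT and 10.8, 10.6, 6.68, 7.01 and 10.9 CPM in A2A mice. It shares 1733 exonic bases on the opposite strand with Timp3, a metalloproteinase inhibitor that read 138 to 176 CPM in WT and 105 to 173 CPM in A2A mice (log2 fold change -0.32, SE 0.15).

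The third comparison asked about amyloid pathology on the A2A background, in APP/PS1 A2A against A2A mice. None of the 36 genes was called (0.0648% of all genes were). Of the 36, 24 had a positive fitted value and 12 a negative one (50.9% of all genes were positive), with a median of 0.08 against 0.00 over all genes. DESeq2 and limma-voom also called 0 of 36. With an unadjusted p below 0.05, 0 of 36 were higher (2.31% of all genes) and 2 were lower (5.39%). The 2 were Syngr3 and Doc2a, and they were also the 2 genes of 36 whose groups did not overlap, both lower in APP/PS1 A2A mice (1.82% of all genes were lower without overlap, and 0.998% higher). The first count is close to the background share, and the second is 2 genes only. Without replicate 1 of the APP/PS1 A2A group 3 of 36 were higher at that p (Synj1, Pclo and Rims1), and without A2A replicate 3 it was 1. Over all genes, in either direction, 2189 of 18728 and 1734 of 18494 reached that p in these fits. With all mice it was 1426 of 18529.

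Syngr3 (chr17:24685092-24689955, minus strand, GRCm38) encodes synaptogyrin 3, a protein of synaptic vesicles with several membrane spans. It read 145, 138, 144, 133 and 132 CPM in WT, 154, 148, 152, 152 and 139 CPM in A2A, 157, 157, 140, 127 and 144 CPM in APP/PS1, and 112, 131, 137 and 129 CPM in APP/PS1 A2A mice. All 4 APP/PS1 A2A values lay below all 5 A2A values, by a small gap, while the lowest APP/PS1 value and the lowest WT values fell among them. The log2 fold change against A2A was -0.23 (SE 0.07, interval -0.37 to -0.09, unadjusted p 0.00335, adjusted p 0.243 in edgeR). Over the 17 other fits of this comparison it ranged from -0.26 to -0.17, with adjusted p from 0.145 to 0.635. The value nearest 0 came without replicate 1 of the APP/PS1 A2A group, the lowest of its mice.

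Doc2a (chr7:126847416-126852705, plus strand) encodes a calcium sensor with C2 domains that in mouse hippocampal neurons acts in asynchronous glutamate release. It read 19.4, 14.7, 15.3, 8.81 and 11.7 CPM in WT, 17.6, 17.6, 12.7, 19.4 and 10.8 CPM in A2A, 12.5, 15.6, 17.2, 8.68 and 9.88 CPM in APP/PS1, and 9.16, 9.91, 7.31 and 10.6 CPM in APP/PS1 A2A mice. The APP/PS1 A2A mice were all low, but WT and APP/PS1 mice with values as low were also present. The log2 fold change against A2A was -0.75 (SE 0.23, interval -1.24 to -0.26, unadjusted p 0.00459, adjusted p 0.275 in edgeR). With offsets for GC content, which is 63.8% in the exons of Doc2a and higher there than in the other 35 genes, the value was -0.45 with an adjusted p of 0.743. Doc2a shares 1103 exonic bases on the opposite strand with Ino80e, a chromatin remodelling subunit. Ino80e itself read 30.9 to 38.0 CPM in A2A and 31.2 to 36.5 CPM in APP/PS1 A2A mice (log2 fold change -0.09, SE 0.08).

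Syt2 (chr1:134646677-134762593, plus strand) read 41.6, 26.3, 68.4, 23.5 and 31.1 CPM in WT, 46.2, 40.1, 24.7, 50.7 and 21.6 CPM in A2A, 30.8, 48.8, 49.3, 16.6 and 22.6 CPM in APP/PS1, and 28.3, 23.6, 22.1 and 21.0 CPM in APP/PS1 A2A mice. Each of the first 3 groups held both high and low mice, whereas the 4 APP/PS1 A2A mice were all low and within the range of the others. The log2 fold change against A2A was -0.62 with an interval from -1.35 to 0.10 (unadjusted p 0.0874, adjusted p 0.725 in edgeR). It became -0.24 with a term for the level of CA2 and CA3 markers, an alternative chosen after seeing the data. Rab3a, the gene next in order of p, had a value of -0.12 (SE 0.07).

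The 6 calcium sensors were divided, with 3 positive fitted values against A2A (Syt1 0.10, the slower Syt7 0.04 and Doc2b 0.19), 3 negative (Doc2a, Syt2 and Syt4, at -0.14) and a median of -0.05. The 4 genes of endocytosis and recycling were all positive, from 0.07 (Dnm1) to 0.24 (Synj1, the lipid phosphatase that uncoats vesicles). Of the SNARE and SNARE-handling genes, 7 of 9 were positive, with a median of 0.09. Over all genes 50.9% were positive. Of the 8 active zone and Rab3 genes, 5 were positive, up to 0.24 for Pclo. Of the 9 vesicle genes, 5 were positive, up to 0.30 for Sv2b, a vesicle glycoprotein of many excitatory neurons. Apart from Syngr3 and Doc2a, no gene of the 36 reached an unadjusted p under 0.05. Beside these values, 8 of the 10 CA2 and CA3 pyramidal markers were positive in the same comparison, with a median of 0.28, and 1 of the 10 had an unadjusted p under 0.05. Other lists differed too. Few were positive among the CA1 (3 of 9, median -0.27), inhibitory neuron (2 of 13, -0.15) and oligodendrocyte markers (0 of 10, -0.14). Most were positive among the pan-neuronal (8 of 10, 0.05) and microglia markers (10 of 10, 0.24). The part of these lists in the values of the 36 genes was not tested. In the fit with the CA2 and CA3 marker term, chosen after seeing the data, the median of the 36 genes was 0.02 in place of 0.08. That value is given as a description.

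The fourth comparison asked what the receptor added to amyloid pathology, in APP/PS1 A2A against APP/PS1 mice, and shared the APP/PS1 A2A mice with the third. None of the 36 genes was called, and 0% of all genes were (0 of 18529 by edgeR and 0 by DESeq2, with 532 genes at an unadjusted p under 0.05 in edgeR). Positive values numbered 28 and negative values 8 (47.7% of all genes were positive), with a median of 0.08 against -0.01 over all genes. Many of the 36 genes vary together between mice, as described below, so their signs are not independent. The single gene at an unadjusted p under 0.05 was Syngr3, lower by a log2 fold change of -0.19 (SE 0.07, unadjusted p 0.0114, adjusted p 0.9999 in edgeR), where 2.06% of all genes were lower and 0.81% higher. It lost that p without replicate 1 of the APP/PS1 A2A group, where 0 genes were lower and 1 was higher. Without APP/PS1 replicate 5 the counts were 3 lower and 2 higher, and without APP/PS1 replicate 4 they were 2 and 0. Over all genes, in either direction, 804 of 18728, 1027 of 18480 and 639 of 18419 reached that p in these fits, in that order. Doc2a had -0.46 (SE 0.23), Syt2 -0.50 (SE 0.34) and Syt4, an atypical synaptotagmin found on dense-core vesicles, -0.22 (SE 0.12). With the CA2 and CA3 marker term these values were -0.29 for Doc2a, -0.18 for Syt2 and -0.19 for Syt4. Syngr3 with that term was -0.18 (unadjusted p 0.016 in edgeR).

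Syt4 read 198, 264, 234, 197 and 184 CPM in APP/PS1 and 156, 185, 200 and 197 CPM in APP/PS1 A2A mice. The groups overlapped, and the 2 highest APP/PS1 mice lay above all the others. All 9 SNARE and SNARE-handling genes were positive, from 0.02 (Vamp2) to 0.15 (Cplx2), where 47.7% of all genes were positive. Syp read 1392, 1639, 1640.5 and 1589 CPM in APP/PS1 A2A mice, within the APP/PS1 range except for the lowest, and the interval of its difference ran from -0.19 to 0.21. Snap25 read 1617, 2701, 2758 and 2489 CPM, Slc17a7 931, 1044, 1205 and 1073 CPM, and Syn1 316, 344, 405 and 365 CPM. In Snap25 the first of these mice lay below all APP/PS1 mice and the others within their range. The intervals ran from -0.26 to 0.43 for Snap25, from -0.22 to 0.51 for Slc17a7 and from -0.23 to 0.26 for Syn1.

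**Figure D2:**
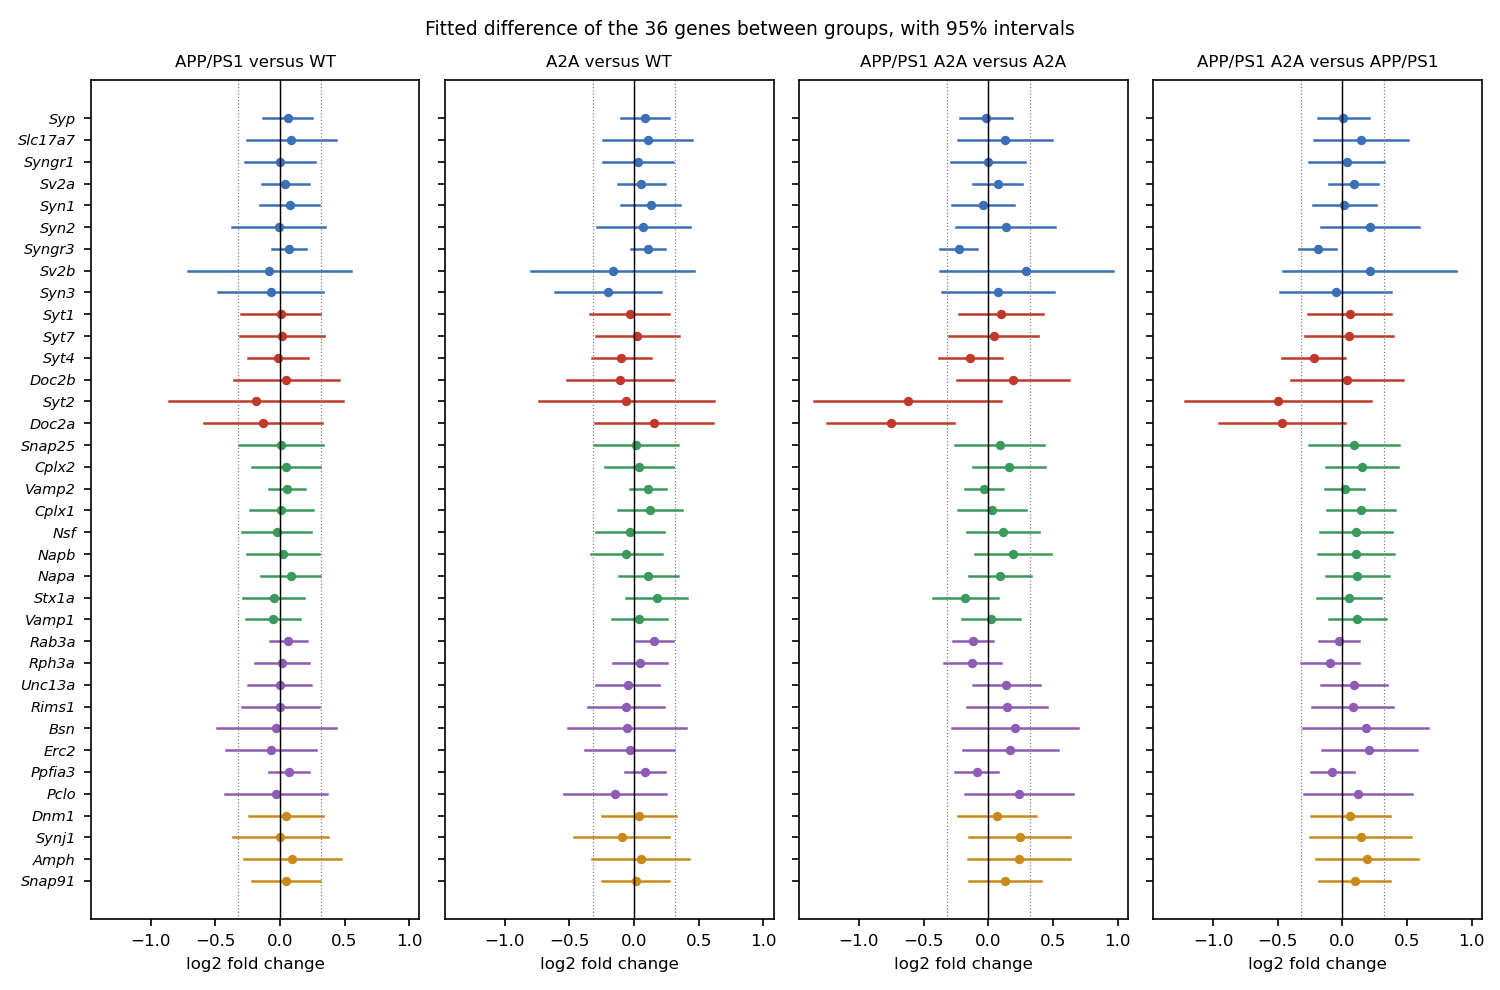
Fitted log2 fold change of the 36 genes in 4 comparisons, with 95% intervals, coloured by role as in the plot of WT levels. Dotted lines mark 0.32 on either side of 0. Syngr3 and Doc2a are the genes whose intervals lie wholly below 0 in APP/PS1 A2A against A2A (-0.37 to -0.09 and -1.24 to -0.26), and the widest intervals belong to Syt2 and Sv2b.

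The last comparison tested the difference between the effect of APP/PS1 with and without A2A. None of the 36 genes was called (0% of all genes were, 0 of 18529 by edgeR, 1 by DESeq2, and 704 at an unadjusted p under 0.05 in edgeR). Syngr3 had a difference of -0.30 (SE 0.09, interval -0.50 to -0.10, unadjusted p 0.00481, adjusted p 0.9998 in edgeR), and was the 1 gene at an unadjusted p under 0.05, where 3.15% of all genes were lower and 0.648% higher. With single mice left out, 1 to 3 of the 36 genes were lower at that p (3 without APP/PS1 replicate 4, and 2 without APP/PS1 replicate 5, A2A replicate 5 or WT replicate 1). Over all genes, in either direction, 1096 of 18419, 855 of 18480, 797 of 18503 and 691 of 18501 reached that p in these fits, in that order. The APP/PS1 effect on Syngr3 was 0.07 without and -0.23 with A2A. Doc2a followed with -0.62 (SE 0.32), Rab3a with -0.18 (SE 0.10) and Ppfia3, a liprin that organises active zones, with -0.16 (SE 0.11). Differences are estimated less well than single contrasts, since the intervals of 2 of 36 genes lay within 0.32 of 0 here.

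Ppfia3 read 137, 144, 134, 144 and 149 CPM in WT, 153, 142, 149, 135 and 171 CPM in A2A, 166, 136, 142, 134 and 166 CPM in APP/PS1, and 128, 145, 145 and 148 CPM in APP/PS1 A2A mice. All groups overlapped.

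**Figure D3:**
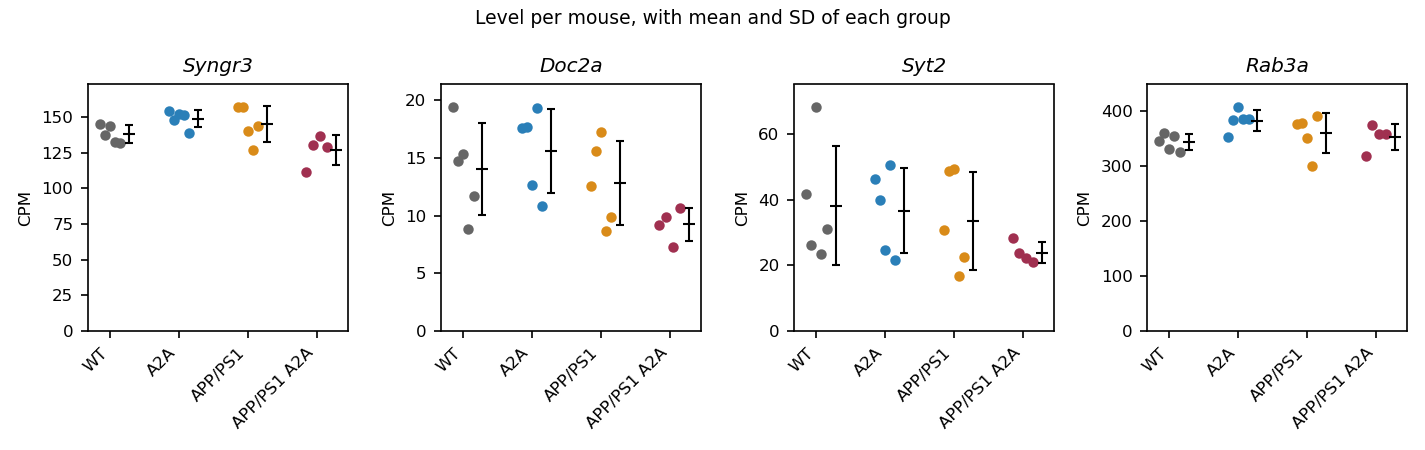
CPM per mouse of Syngr3, Doc2a, Syt2 and Rab3a in the 4 groups (n = 5, 5, 5 and 4), with group means and SDs in black, axes from 0. The 4 APP/PS1 A2A mice are low for Syngr3 (112 to 137) and Doc2a (7.31 to 10.6), and in Syt2 (21.0 to 28.3) they fall among the low mice of the other groups.

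Other presynaptic genes gave the same count in the edgeR fit. A list of 111 further genes held 108 that were tested, and 0 of these were called by edgeR in any of the 5 comparisons. The list was not examined in the alternative fits. In APP/PS1 A2A against A2A, DESeq2 called 162 of all genes where edgeR called 12. At an unadjusted p under 0.05 in edgeR, APP/PS1 against WT held 0, and A2A against WT held 5 higher (4.63%, against 1.98% of all genes) and 0 lower (1.46%). APP/PS1 A2A against A2A held 2 higher (1.85%, against 2.31%) and 10 lower (9.26%, against 5.39%). APP/PS1 A2A against APP/PS1 held 0 higher (0.81%) and 5 lower (4.63%, against 2.06%), and the difference 0 higher (0.648%) and 5 lower (4.63%, against 3.15%). The median of the 108 in APP/PS1 A2A against A2A was 0.03. Sncb, beta-synuclein, had the smallest p in that comparison. It read 245, 232, 169, 229 and 178 CPM in A2A and 126, 130, 120 and 121 CPM in APP/PS1 A2A mice, and the groups did not overlap (log2 fold change -0.76, SE 0.17, unadjusted p 0.000331, adjusted p 0.138 in edgeR). In APP/PS1 mice it read 187, 209, 213, 119 and 125 CPM, so that 1 of these mice lay below all 4 APP/PS1 A2A mice and another among them, and the lowest WT mouse read 143 CPM. Sncb also had the smallest p of the list against APP/PS1 (-0.46, SE 0.17, unadjusted p 0.0158, adjusted p 0.9999 in edgeR). Rabac1, a Rab3-interacting membrane protein (-0.60, SE 0.15), and Ap2s1, the small subunit of the endocytic adaptor AP-2 (-0.34, SE 0.09), came next, neither being called. In A2A against WT the 3 smallest p belonged to the clathrin light chain Clta (0.22, SE 0.08) and the proton pump subunits Atp6v1f (0.24, SE 0.09) and Atp6v0b (0.14, SE 0.06). In APP/PS1 against WT they belonged to Syt9 (-0.73, SE 0.42), Clta (0.13, SE 0.08) and Hspa8 (-0.35, SE 0.21). In the difference between the APP/PS1 effects, Rabac1 (-0.68, SE 0.20), Ap2s1 (-0.39, SE 0.13) and the other light chain Cltb (-0.31, SE 0.10) led.

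Most of the variation in the 36 genes lay between mice of the same group. The within-group share of the variance of log2 CPM had a median of 91.5% over the genes, from 51.4% (Syngr3) to 99.7% (Syngr1). With few mice per group, a gene without any group effect is also expected to have most of its variance within groups. The share was not compared with that of all tested genes, so whether it is particular to these genes was not tested. The within-group SD had a median of 0.22 on the log2 scale, and was lowest for Vamp2 (0.09) and highest for Syt2 (0.56). The first principal component of the deviations from group means held 65.6% of their variance, and the second 13.2%. On this component 28 genes carried the same sign, led by Sv2b (weight 0.403), the active zone scaffolds Bsn (0.271) and Pclo (0.232), the recycling genes Synj1 (0.231) and Amph (0.225), and Syn2 (0.219). The opposite sign was carried by 8 genes, led by Syt2 (-0.342), Doc2a (-0.203), Doc2b (-0.164) and Syn3 (-0.160). Syngr3 (0.00449), Vamp2 (0.0132) and Napa (-0.0157) had hardly any weight. Over the 36 genes the weight had a Spearman correlation of 0.42 with exon length and of -0.40 with GC content, given as a description.

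Each group held mice at both ends. Of the 36 genes, the number above the group mean was 8 in APP/PS1 A2A replicate 1, 5 in APP/PS1 replicate 3 and 6 in A2A replicate 4. It was 30 in APP/PS1 replicate 5, 28 in A2A replicates 3 and 5, 27 in WT replicate 4 and 26 in APP/PS1 A2A replicate 3. It was 31 in APP/PS1 A2A replicate 4, whose score on the component was lower than theirs. In APP/PS1 replicate 4 it was 12, although the score was positive at 0.609. Sv2b showed the pattern most plainly. It read 467, 634, 376, 809 and 431 CPM in WT, 353, 406, 733, 336 and 593 CPM in A2A, 388, 562, 327, 599 and 692 CPM in APP/PS1, and 250, 662, 828 and 637 CPM in APP/PS1 A2A mice. High and low mice were present in every group, and the highest mouse was 3.32 times the lowest. The highest and lowest mouse of Vamp2 differed by 1.31 times.

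Bsn read 343, 451, 357, 451 and 413 CPM in WT, 413, 351, 504, 220 and 451 CPM in A2A, 382, 349, 273, 425 and 550 CPM in APP/PS1, and 271, 421, 583 and 517 CPM in APP/PS1 A2A mice. In 3 of the 4 groups the same mouse was lowest for both genes.

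**Figure D4:**
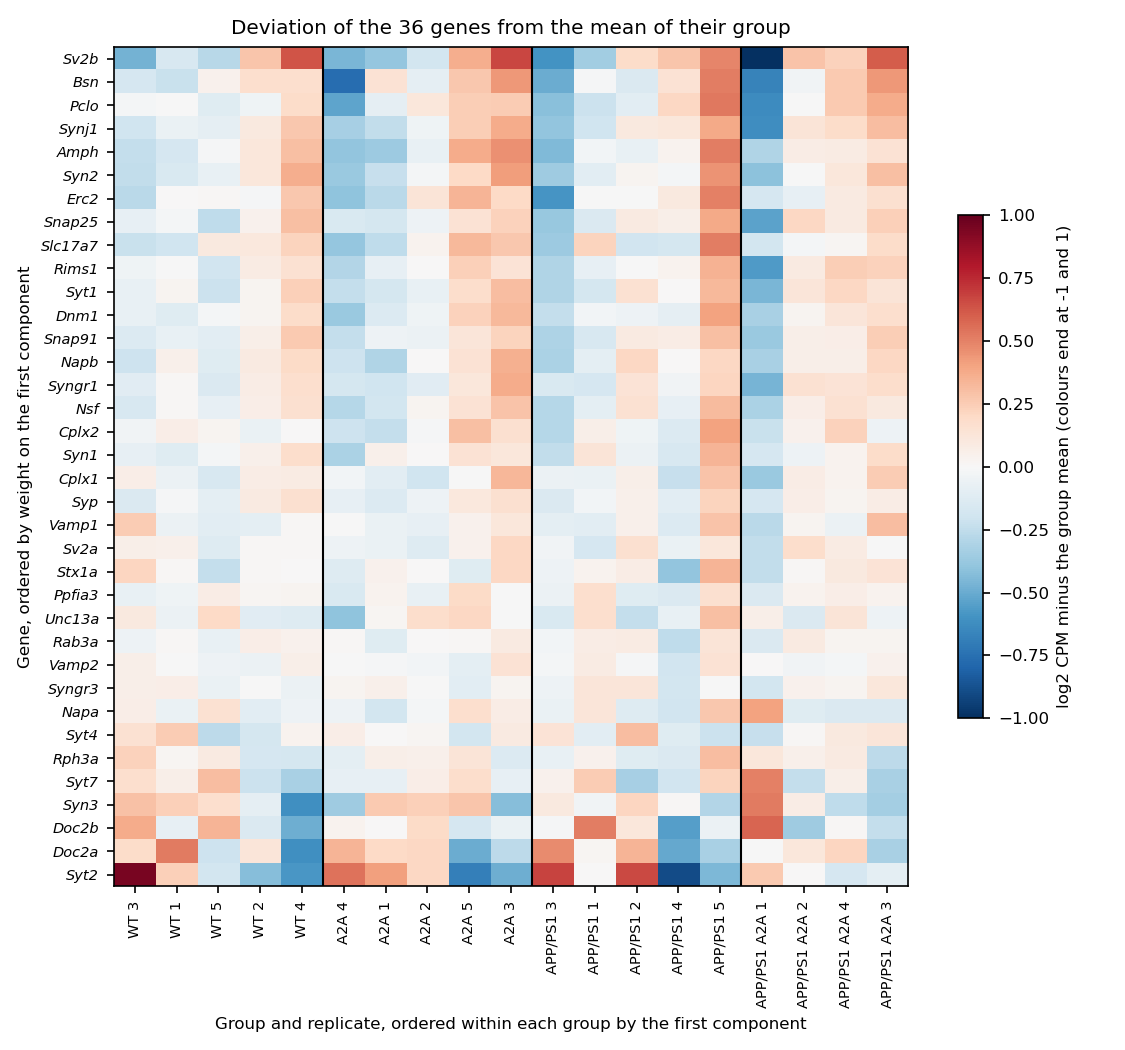
Deviation of log2 CPM from the group mean for the 36 genes (rows, ordered by weight on the first component) in 19 mice (columns, ordered within each group). Red is above and blue below the group mean, with colours ending at -1 and 1; Sv2b in APP/PS1 A2A replicate 1 lies beyond, at -1.12. The upper 28 genes share the sign of their weight, which is close to 0 for Vamp2 and Syngr3. Syt2, Doc2a, Doc2b and Syn3 carry the largest weights of the opposite sign.

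The levels of hippocampal subfield markers moved with this pattern. In the 5 mice lowest on the component the 10 CA2 and CA3 pyramidal markers summed to 299.5 to 345.4 CPM, and in the 5 highest to 517 to 675 CPM, without overlap. The 10 dentate granule markers summed to 848 to 1283 CPM in the 5 lowest and 498 to 928 CPM in the 5 highest, the 9 CA1 pyramidal markers to 885 to 960 and 629 to 784 CPM, and the 10 parvalbumin interneuron markers to 601 to 689 and 711 to 772 CPM. With each parvalbumin marker standardised and counted equally, the mice overlapped, at -0.384 to 0.461 in the 5 lowest and -0.296 to 0.415 in the 5 highest. No direction is therefore given for that list. Pan-neuronal markers overlapped (6972 to 7702 and 7368 to 8821 CPM), as did library totals (21305902 to 36502915 and 30433394 to 50062369 counts). Markers from outside the subfields varied too. The 8 ependymal markers summed to 12.1 to 34.3 CPM in the 5 lowest and 28.5 to 101 CPM in the 5 highest, with overlap. The 14 thalamic markers summed to 375 to 478 and 418 to 478 CPM. Among them Slc17a6, chosen after its values were seen, read 11.3 to 59.3 and 2.44 to 9.39 CPM, without overlap. The marker sums overlapped between the 4 genotype groups, at 302 to 612 CPM in WT, 316 to 597 in A2A, 299.5 to 675 in APP/PS1 and 345.4 to 606 in APP/PS1 A2A mice for the CA2 and CA3 list. In whole tissue, fewer cells of a type and less RNA per cell cannot be told apart. The part of the subfield markers, or of markers from outside the subfields, in the pattern was not tested.

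For single genes the relation was measured over the 19 mice, on log2 CPM against the mean standardised marker level, with genes and lists chosen after seeing the data and p adjusted over 8 relations. Sv2b rose with the CA2 and CA3 markers (Pearson r 0.86, Spearman rho 0.82, permutation adjusted p 0.00012 and 0.0002). Without the 2 mice farthest from the marker median r was 0.84, and with values centred on group means it was 0.86. Syt2 fell with the same markers (r -0.89, rho -0.84, permutation adjusted p 8e-05 and 0.00016, r -0.86 without 2 mice, -0.90 centred). Bsn rose (r 0.74, rho 0.73, permutation adjusted p 0.00038 and 0.00126, r 0.72 without 2 mice, 0.73 centred) and Doc2a fell (r -0.70, rho -0.65, permutation adjusted p 0.00184 and 0.00515, r -0.67 without 2 mice, -0.73 centred). With the dentate markers the signs were opposite, at r -0.78 and rho -0.74 for Sv2b (permutation adjusted p 0.000347 and 0.00123, r -0.69 without 2 mice) and r -0.55 and rho -0.60 for Bsn (0.0207 and 0.0102, r -0.43 without 2 mice). For Syt2 and Doc2a with the dentate markers r was 0.47 and 0.48 (permutation adjusted p 0.044 for both) and rho 0.45 for both (0.0554 for both), and for Doc2a r fell to 0.20 without 2 mice, so that relation rests on those mice.

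**Figure D5:**
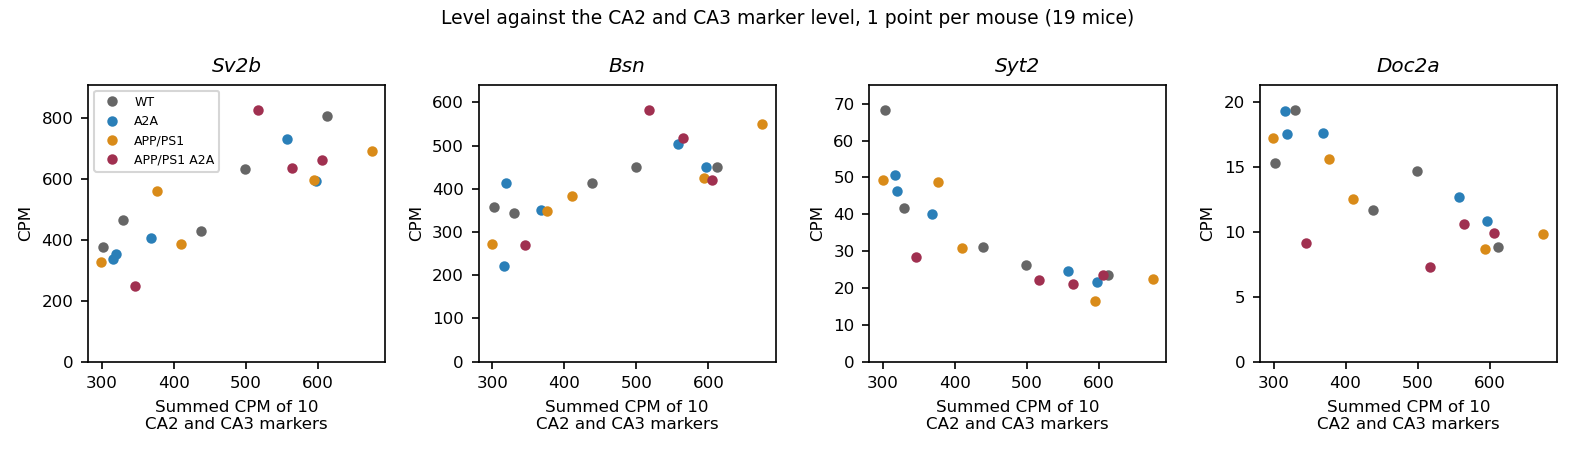
CPM of Sv2b, Bsn, Syt2 and Doc2a against the summed CPM of 10 CA2 and CA3 pyramidal markers, 1 point per mouse (19 mice), coloured by group, vertical axes from 0. Sv2b and Bsn are high, and Syt2 and Doc2a low, where the markers are high, with mice of all groups along the range.

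Syt2, Vamp1 and Cplx1 are known from fast-spiking inhibitory neurons and from neurons outside the cortex, so each was set against parvalbumin interneuron markers and against thalamic markers, as 6 relations over 19 mice. The outcome depended on how the marker level was formed. With the mean standardised level, in which each of the 10 parvalbumin markers counts equally, Syt2 had a Pearson r of 0.66 (permutation p 0.00158, adjusted 0.00948, 0.55 without 2 mice, 0.67 centred on group means) and a rho of 0.57 (permutation adjusted p 0.0736), while Vamp1 and Cplx1 both had r of 0.36 (permutation adjusted p 0.264 for both, rho 0.35 and 0.22). With log2 of the summed CPM, an alternative chosen after seeing the data, r turned to -0.37 for Syt2 (rho -0.41, permutation adjusted p 0.229 and 0.162) and rose to 0.77 for Vamp1 (rho 0.79, permutation adjusted p 0.00045 and 0.00072) and 0.82 for Cplx1 (rho 0.74, permutation adjusted p 0.0003 and 0.00099). That sum is made up mostly of the channel and channel-associated genes Kcnc1, Kcnip2 and Kcnc2 and of Erbb4, at WT means of 186, 179, 127 and 103 CPM, and Pvalb itself read 28.3 CPM. No direction is therefore given for these 3 genes with parvalbumin markers.

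With the thalamic list r was 0.23 for Syt2, -0.23 for Vamp1 and -0.25 for Cplx1 (permutation adjusted p 0.354 for each, rho 0.18, -0.12 and -0.14), and with the summed CPM it was -0.02, 0.05 and 0.01 (permutation adjusted p 0.98 for each, rho -0.04, 0.12 and 0.05). The largest gene of that sum was Adarb1 (WT mean 202 CPM, against 30.6 for Slc17a6). Slc17a6 of that list, looked at after its values were seen, read 55.0 and 59.3 CPM in WT replicates 1 and 3. It read 34.6 and 39.3 CPM in A2A replicates 1 and 4, and 52.7 and 47.0 CPM in APP/PS1 replicates 2 and 3. These mice were also the highest for Syt2, and Slc17a6 read 2.44 to 25.4 CPM in the others. That relation and those of the list's other genes were not tested. The 8 relations with CA2 and CA3 and with dentate markers kept their sign with the summed CPM, at r from -0.90 to 0.85, but those of Syt2 and Doc2a with the dentate markers missed the threshold on r (0.46 and 0.45, permutation adjusted p 0.0525 for both) and passed it on rho (0.48 and 0.49, permutation adjusted p 0.0397 and 0.0396).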

How the data were processed

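Poly(A) libraries from a stranded TruSeq kit were sequenced from the hippocampus of 19 mice. Per the labels and the study's methods, the authors trimmed adapters, removed ribosomal reads, aligned to mm10 with STAR 2.5.3a and counted reads per Ensembl gene with HTSeq 0.6.1p1. The deposited values used are these raw counts per gene, not normalized. Deposited columns of fold changes and p-values from the authors' DESeq2 1.16.1 comparisons were not used, and a deposited column of transcript length, a base number of another kind, was replaced by exon unions of GENCODE annotation for GRCm38.

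Counts were filtered by group (minimum count 10), scaled by TMM and fitted with edgeR 4.0.16 (R 4.3.3) as 4 group means, with quasi-likelihood tests, SEs from the F statistic, 95% intervals and Benjamini-Hochberg adjustment over 18529 genes. Log2 CPM used a prior count of 2. The test was checked on simulated data. Alternatives were DESeq2 1.42.0, limma-voom 3.58.1, other size factors and filters, only the groups compared, GC offsets, leaving out each mouse and, added after seeing the data, a CA2 and CA3 marker term and summed marker levels. Relations over mice used 100000 permutations, whose smallest p is 1e-05. Replicates were numbered within groups in order, and each is 1 mouse. Members and gene lists were chosen with earlier results of these data known. Named genes were the 4 of smallest p per comparison, 4 paralogue pairs, Syp, Snap25, Slc17a7 and Syn1, the 3 of smallest p among other presynaptic genes, and markers beside a result; Sv2b, Bsn and the other leaders of the mouse-to-mouse component were chosen after their values were seen.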

Additional observations from a re-analysis of the deposited data

Results flagged for a closer look

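Single mice lay far from the others of their group in 6 of 144 combinations of gene and group (4.17%), where chance gives about 1 in 20. Of these, 4 belonged to APP/PS1 A2A replicate 1. It read 1317 CPM for Syt1 (the others 1969 to 2089), 402 CPM for Syngr1 (609 to 627), 128 CPM for Ppfia3 (145 to 148) and, in the opposite direction, 343 CPM for Napa (234 to 239). WT replicate 5 read 462 CPM for Sv2a (the others 510 to 529), and APP/PS1 replicate 5 read 1337 CPM for Dnm1 (857 to 991). With each of these mice left out in turn, 0 of 36 genes were called in any comparison.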

How the results depend on the processing

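Over 27 alternative settings, 3456 fits of the 36 genes gave 0 calls, the smallest adjusted p being 0.0962 for Doc2a in APP/PS1 A2A against A2A (DESeq2). The median of the 36 genes stayed within the spread between mice (0.13) of the reported value in each setting. With each mouse left out it ran from -0.06 to 0.07 in APP/PS1 against WT, -0.05 to 0.07 in A2A against WT, 0.04 to 0.14 in APP/PS1 A2A against A2A, 0.01 to 0.17 in APP/PS1 A2A against APP/PS1 and 0.02 to 0.13 in the difference. Calls over all genes moved more. In APP/PS1 against WT there were 10, and 21 with DESeq2, 4 with at least 10 counts in every mouse, 5 with only the groups compared and 8 to 18 with a mouse left out (18 without APP/PS1 replicate 4). In APP/PS1 A2A against A2A there were 12, and 162 with DESeq2, 6 with the stricter filter, 19 with the CA2 and CA3 term and 10 to 93 with a mouse left out (93 without A2A replicate 3). With the marker term the medians of the 36 genes in the last 3 comparisons were 0.02, 0.03 and 0.01, and Doc2a in APP/PS1 A2A against A2A was -0.55. Syngr3 with that term was -0.21 in APP/PS1 A2A against A2A and -0.29 in the difference. With GC offsets Doc2a was -0.26 against APP/PS1 and -0.25 in the difference. In A2A against WT, 0 of 36 genes were higher at an unadjusted p under 0.05 with those offsets. Over all genes, in either direction, 470 of 18518 reached it. Rab3a in that comparison lost its unadjusted p in 7 of 10 fits without a mouse. With markers as log2 of the summed CPM, r became -0.372 for Syt2 with parvalbumin markers, and -0.0208 for Syt2, 0.0529 for Vamp1 and 0.0057 for Cplx1 with thalamic markers. The causes were not tested. No paired analysis was possible because the labels give no replicate numbers shared between groups. Depth limits Syn3 and Doc2a most, at 202 to 528 and 264 to 747 counts per mouse. P-values set differences and relations against the spread between these mice.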
